A study of Mus musculus with 10 samples.

Results

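The HSP70 and HSP110 genes encode the ATP-driven chaperones that hold and fold other proteins. They were taken from the deposited count table by symbol, and comprised Hspa1a, Hspa1b, Hspa1l, Hspa2, Hspa4, Hspa4l, Hspa5, Hspa8, Hspa9 and Hsph1. These 10 genes were found among 55453 gene symbols, of which 28011 had a count and 14614 had enough counts to be tested. All 10 members were tested. RNA was sequenced from whole aortae of male C57BL/6 mice, 5 young mice aged 14.5 weeks and 5 old mice aged 92.5 weeks, with 1 stranded mRNA library per mouse. The labels name no transgene and no drug, and the fat around the vessel was removed before RNA extraction. The comparison asked how the stress-inducible, constitutive, endoplasmic reticulum and mitochondrial members differed between young and old vessels.

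HSP70 proteins bind exposed hydrophobic stretches of unfolded proteins and release them in cycles of ATP hydrolysis. J-domain (HSP40) proteins deliver the substrate and trigger hydrolysis, while HSP110 proteins and other nucleotide exchange factors release the ADP. Each compartment has its own HSP70: the cytosol has a constitutive one and a pair that heat shock factor 1 switches on when proteins unfold, the endoplasmic reticulum has BiP, and mitochondria have mortalin.

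Sequence upstream of the start sites is shown for the members that differ in how they are switched on. The 250 bases before the RefSeq transcription start (build GRCm38.p6) were searched on both strands for GAANNTTC and TTCNNGAA, the inverted pairs of the heat shock element, and for the ER stress response element, which is CCAAT and CCACG with 9 bases between them. The last of these holds the letters of a CCAAT box. Promoters of 8 of the 10 members were matched. The stress-inducible pair and Hspa1l lie side by side on chromosome 17, in the major histocompatibility complex region. The Hspa1a and Hspa1b promoters below span chr17:34972157-34972406 and chr17:34959239-34959488, both on the minus strand, and the Hspa1l promoter spans chr17:34972453-34972702 on the plus strand. Capitals mark a heat shock element pair.
Hspa1a: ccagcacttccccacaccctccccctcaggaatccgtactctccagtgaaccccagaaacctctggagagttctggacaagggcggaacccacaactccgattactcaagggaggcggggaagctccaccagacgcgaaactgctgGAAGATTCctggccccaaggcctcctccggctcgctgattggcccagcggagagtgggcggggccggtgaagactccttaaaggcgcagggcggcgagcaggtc
Hspa1b: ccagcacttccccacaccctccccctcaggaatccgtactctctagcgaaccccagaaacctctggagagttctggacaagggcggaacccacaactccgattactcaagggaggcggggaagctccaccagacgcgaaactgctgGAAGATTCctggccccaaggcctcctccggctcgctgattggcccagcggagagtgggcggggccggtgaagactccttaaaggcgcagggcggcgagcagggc
Hspa1l: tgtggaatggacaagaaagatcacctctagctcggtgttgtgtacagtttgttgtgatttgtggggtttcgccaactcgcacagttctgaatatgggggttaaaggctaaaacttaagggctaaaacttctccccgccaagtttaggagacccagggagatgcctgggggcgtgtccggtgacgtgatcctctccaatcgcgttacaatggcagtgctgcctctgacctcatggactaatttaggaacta

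The promoters of the pair differed at 3 of 250 bases, and in each the motif began 104 bases before the start. The Hspa1l window held neither motif, but it does not reach the Hspa1a motif, which lies in the 546 bases between these genes. One or other heat shock element pair occurred in 12.8% of all 32851 promoters. For Hsph1 and Hspa5 the motif is shown with 5 bases on each side, at chr5:149636357-149636374 on the minus strand and chr2:34772020-34772048 on the plus strand. Capitals mark a heat shock element pair in the first and the ER stress response element in the second.
Hsph1: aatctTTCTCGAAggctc
Hspa5: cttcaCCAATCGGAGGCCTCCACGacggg
The Hsph1 motif began 33 bases before the first of its 2 RefSeq starts, which lie 21 bases apart. The Hspa5 motif began 65 bases before the start, and its pattern was found in 0.113% of all promoters. In GENCODE M21 both genes also have transcripts that begin further upstream, so that these stretches lie within a first exon there. The windows of Hspa2, Hspa4 and Hspa4l held no heat shock element pair. These matches describe letters in a window and were not tested for binding.

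Of the 10 members, 4 were lower in old aortae at an adjusted p below 0.05 (edgeR quasi-likelihood F test, Benjamini-Hochberg over all genes tested), and none was higher. The same test called 4.99% of all tested genes lower, 6.48% higher, and 11.5% in either direction. The genes called were Hspa1a, Hspa1b, Hspa1l and Hspa4. Hspa1a and Hspa1b are near identical, and with their counts summed into 1 row, 3 rows of the family were lower. Many members also varied together between mice, so counts over the members are not counts of independent results. All 10 log2 fold changes were negative, against 49.2% of all genes tested, and their median was -0.54, against 0.00339 for all genes. Without adjustment, p was below 0.05 for 8 members. The share of all tested genes at that unadjusted cutoff was not counted, here or for the lists below. In 3 members every old mouse was below every young mouse, which held for 4.55% of all genes tested. The aorta was sequenced in bulk, so that fewer cells of a type and less RNA per cell cannot be told apart.

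**Figure D1:**
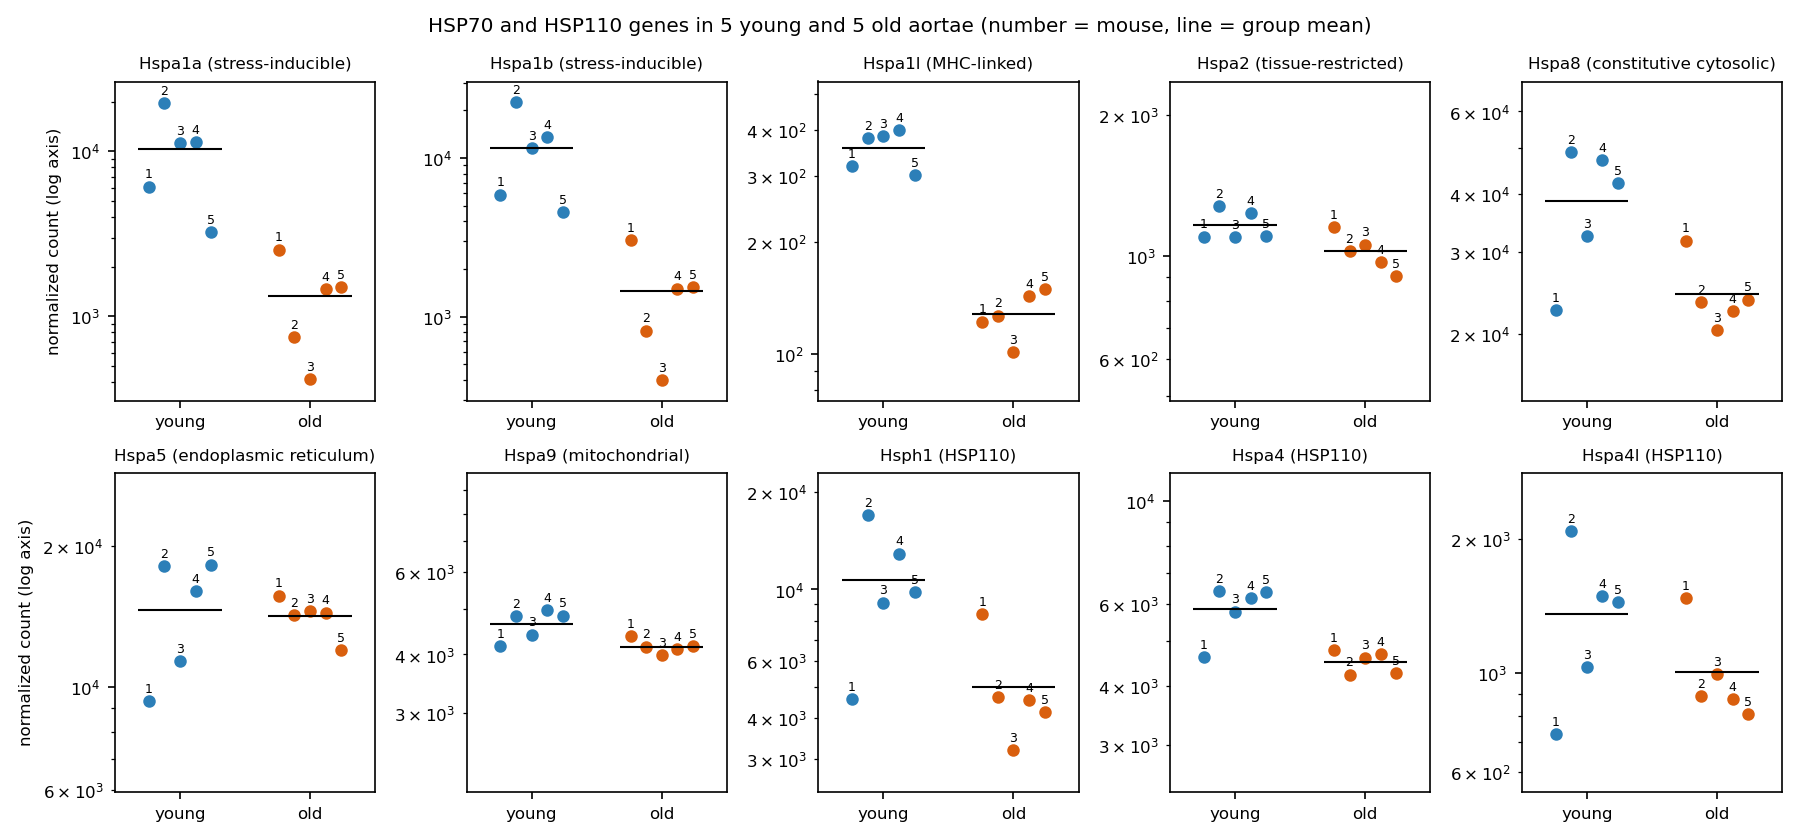
Normalized counts (log axis) of the 10 HSP70 and HSP110 genes in each of 5 young (blue) and 5 old (orange) aortae; the number beside a point is the mouse and the line is the group mean. Old points lie below all young points for Hspa1a, Hspa1b and Hspa1l, and the groups overlap for the other 7.

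Hspa1a and Hspa1b encode the HSP70 that cells make after heat or other proteotoxic stress. Hspa1a (ENSMUSG00000091971.3, chr17:34969190-34972156, minus strand, GENCODE M21) is a gene of 1 exon. Its normalized counts, which are counts divided by a size factor for the depth of each library, were 6109, 19610.2, 11186, 11395 and 3245 in young mice 1 to 5. In old mice 1 to 5 they were 2537, 749, 414, 1452 and 1504. The lowest young mouse, young 5, was above the highest old mouse, old 1, so the groups did not overlap, but levels spanned 6.04-fold among the young and 6.13-fold among the old. The mean was 10309 ± 6245 in young aortae and 1331 ± 819 in old ones (SD, n = 5 each), and the old mean was 12.9% of the young. The log2 fold change was -2.95 ± 0.60 (SE, 95% interval -4.29 to -1.60), with an edgeR adjusted p of 0.0134.

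Hspa1b (ENSMUSG00000090877.3, chr17:34956436-34959238, minus strand, 1 exon) followed the same order of mice. Young mice 1 to 5 had 5883, 22567, 11595.5, 13554 and 4572 normalized counts. Old mice 1 to 5 had 3025, 816, 397, 1505 and 1535. Young 2 was again the highest and young 5 the lowest of the young, and old 1 the highest and old 3 the lowest of the old. Means were 11634 ± 7179 and 1456 ± 1000 (SD, n = 5 each), with a log2 fold change of -2.99 ± 0.62 (SE) and an edgeR adjusted p of 0.0145.

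The coding sequences of Hspa1a and Hspa1b were 99.4% identical, with 8 mismatches and 3 gap bases. Of the 50-base windows of Hspa1a, 58.8% occur in Hspa1b, and 62.3% in the opposite direction, so that reads from the pair can be split or lost in counting and the level of each gene is uncertain. Hspa1a took 41.5% to 51.0% of the counts of the pair over the 10 mice. When both rows were summed before the fit, the pair was lower by a log2 fold change of -2.97 ± 0.61 (SE), with an edgeR adjusted p of 0.0137. Gm20481, an antisense gene whose 564 exonic bases lie entirely within Hspa1a, had 2 to 52 raw counts in young and 0 to 5 in old libraries. Reads of an antisense pair can be told apart only if the counting used strand, and that setting is not given in the sources used here.

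Hspa1l is a close relative that is transcribed mainly in the testis and is not induced by heat. Its start is 546 bases from that of Hspa1a, in the opposite direction (ENSMUSG00000007033.4, chr17:34972703-34979285, plus strand). Young mice 1 to 5 had 320.0, 380.4, 385, 399.8 and 302 normalized counts, and old mice 1 to 5 had 122, 126, 101, 143 and 149. The groups stood apart, with a gap larger than the range of either group. The mean fell from 357 ± 43.4 in the young to 128 ± 18.9 in the old (SD, n = 5 each). Its log2 fold change was -1.47 ± 0.12 (SE), and its edgeR adjusted p of 1.37e-05 was the smallest of the family.

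The spread of Hspa1l among mice was far below that of its neighbours, with a coefficient of variation of 12.1% in young aortae against 60.6% for Hspa1a. The coding sequence of Hspa1l was 82.7% identical to that of Hspa1a, and 9.57% of its 50-base windows occur in other members. The antisense gene Gm10501, which holds 71.4% of the Hspa1l windows, had 24 to 39 raw counts in young and 28 to 44 in old libraries. Of 6 markers of male germ cells, none had enough counts to be tested, and 1 was at 0 in every library.

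Hspa8 encodes HSC70, the constitutive cytosolic HSP70, which also uncoats clathrin vesicles and carries proteins to lysosomes in chaperone-mediated autophagy. Its normalized counts were 22519, 49026, 32415, 47149 and 42164 in young mice 1 to 5 and 31722, 23376, 20392, 22399.5 and 23683 in old mice 1 to 5. Young 1 lay among the old mice, and the highest old mouse, old 1, was just below the other 4 young mice. Means were 38655 ± 11083 and 24314 ± 4336 (SD, n = 5 each). Hspa8 did not pass the test, with a log2 fold change of -0.66 ± 0.20 (SE, 95% interval -1.10 to -0.22) and an edgeR adjusted p of 0.0588. It passed with DESeq2 (log2 fold change -0.67, adjusted p 0.00377), which called 6 members and 7.4% of all genes tested lower. Limma-voom with sample quality weights called 7 members and 8.09% of all genes lower, Hspa8 among them. It also passed in edgeR without young 1 (-0.81, adjusted p 0.00400) and without old 1 (-0.78, adjusted p 0.0366). In 15 of 20 alternative fits without a replicate block Hspa8 still did not pass, with an adjusted p of up to 0.170. Of the 50-base windows of Hspa8, 39.4% occur in other genes, mostly in Gm15459, which had 75 to 194 raw counts.

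Hspa2, best known for its role in spermatogenesis, was measured in every aorta and varied little. Its normalized counts ran from 1098 to 1278 in young and from 903 to 1153 in old aortae, and the groups overlapped through old 1 alone. The log2 fold change was -0.18 ± 0.07 (SE), with an edgeR adjusted p of 0.145.

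Hspa5 encodes BiP, the HSP70 of the endoplasmic reticulum. Young mice 1 to 5 had 9319, 18129, 11351, 16031 and 18264.5 normalized counts, and old mice 1 to 5 had 15666.5, 14231, 14507, 14407 and 11967. All old mice lay within the range of the young. Means were 14619 ± 4073 and 14156 ± 1348 (SD, n = 5 each). No difference was called, with a log2 fold change of -0.04 ± 0.17 (SE) and an edgeR adjusted p of 0.919. The 95% interval ran from -0.42 to 0.35, or 0.747 to 1.27 times the young level, so that changes within that range cannot be told from none at this spread.

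Hspa9 encodes mortalin, the mitochondrial HSP70 that pulls proteins through the inner membrane and folds them. Normalized counts were 4162, 4825, 4410, 4973 and 4847 in young mice 1 to 5 and 4372, 4155, 3988, 4100 and 4173 in old mice 1 to 5. The old mice lay close together, and 3 of them were below the lowest young mouse, young 1. The log2 fold change was small, -0.15 ± 0.06 (SE), with an edgeR adjusted p of 0.125. Without young 1 it was -0.19 with an adjusted p of 0.0335. Hspa9 stayed uncalled in 17 of 20 alternative fits without a replicate block, with an adjusted p of up to 0.276.

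The HSP110 members, Hsph1, Hspa4 and Hspa4l, release ADP from HSP70 and take part in pulling aggregated proteins apart. Hspa4 (ENSMUSG00000020361.13, chr11:53259814-53300457, minus strand) was the only one of these 3 called, with values of 4623, 6410.0, 5787, 6191 and 6370.0 in young mice 1 to 5 and 4777, 4242, 4608, 4694 and 4275 in old mice 1 to 5. Young 1 lay within the old range and the other 4 young mice were above it. The Hspa4 means were 5876 ± 743 and 4519 ± 246 normalized counts (SD, n = 5 each), with a log2 fold change of -0.37 ± 0.09 (SE) and an edgeR adjusted p of 0.0134.

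Hsph1, the heat-inducible HSP110, had a larger but less even difference. Its normalized counts were 4578, 16974, 9097, 12895.5 and 9819 in young mice 1 to 5 and 8372, 4644, 3184, 4547 and 4179 in old mice 1 to 5. Young 1 was as low as the old mice, and old 1 stood well above the other old mice. The log2 fold change was -1.09 ± 0.36 (SE), and the edgeR adjusted p of 0.0853 missed the threshold. DESeq2 gave -1.09 with an adjusted p of 0.0292, and edgeR gave an adjusted p of 0.0232 without young 1 and of 0.0369 without old 1. Hsph1 stayed uncalled in 16 of 20 alternative fits without a replicate block, with an adjusted p of up to 0.182. Hspa4l, which is related to Hspa4 and is known from testis, ran from 730 (young 1) to 2077 (young 2) in young aortae and from 809 (old 5) to 1471 (old 1) in old aortae. Its log2 fold change was -0.42 ± 0.27 (SE), with an edgeR adjusted p of 0.371.

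**Figure D2:**
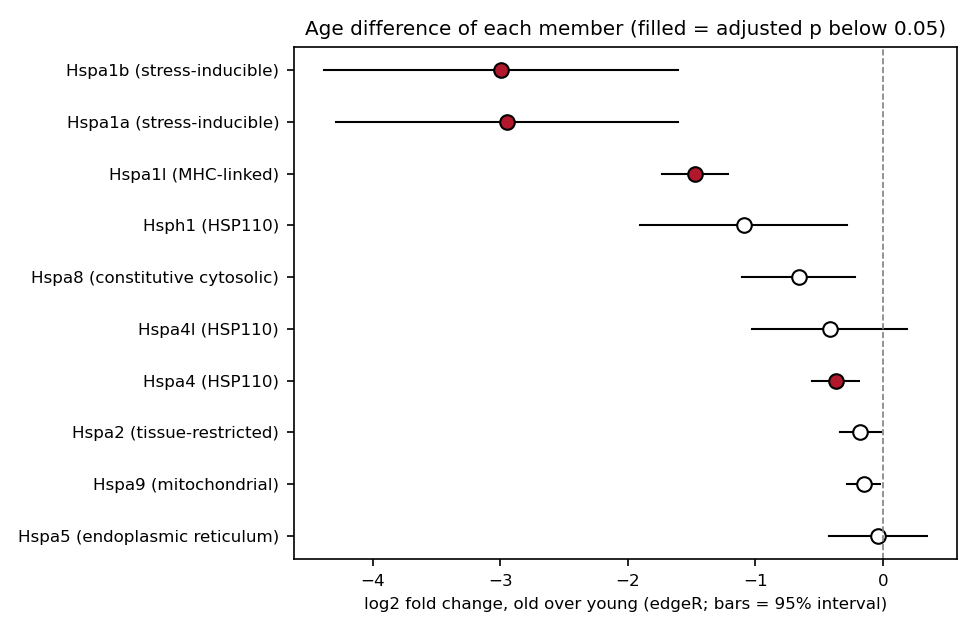
Log2 fold change of each member, old over young, with its 95% interval from edgeR; filled points had an adjusted p below 0.05. The estimates run from -2.99 for Hspa1b to -0.04 for Hspa5, and the intervals of Hspa4l and Hspa5 include 0.

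A small group of mice set the spread within each age. Young 2 was the highest young mouse for 7 of the 10 members, and young 1 the lowest for 6. Old 1 was the highest old mouse for 9 of the 10 members, the exception being Hspa1l, and old 3 the lowest for 6. Young 2 also had the largest sum of striated muscle marker counts, 1230 against a young median of 259. Young 1 had the largest sum of adipocyte marker counts, 24188 against a young median of 7429. Old 2 had 11.0% of its counts on mitochondrial genes against 4.50% to 6.51% in the other 9 libraries. The part of any of these in the results was not tested. When young 1 and old 2 were left out together, a choice made after the data were seen, 6 members were lower, as were 6.93% of all genes, and Hspa8 was among them (log2 fold change -0.79, edgeR adjusted p 0.0121).

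Levels were compared between members as normalized counts per kb of exon. The length was that of the exons of all annotated transcripts merged, from 2472 bases for Hspa1l to 11792 for Hspa4l. A member with many transcripts can thus be placed too low, and reads of the near-identical pair can be lost. The order of members, and the sums and shares below, depend on both. In young aortae Hspa8 was the highest member at 8987 ± 2577 per kb, followed by Hspa1b, Hspa1a, Hspa5, Hsph1, Hspa9, Hspa4, Hspa2, Hspa1l and Hspa4l. Only Hspa4 against Hspa2 and Hspa2 against Hspa1l were neighbours in this order with ranges over mice that did not overlap. In old aortae Hspa8 was again highest, at 5653 ± 1008 per kb, but Hspa5, Hspa9, Hspa4 and Hsph1 came next, ahead of Hspa1b, Hspa1a, Hspa2, Hspa4l and Hspa1l. Among the old neighbours, the ranges of Hspa8, Hspa5, Hspa9 and Hspa4 did not overlap, nor did those of Hspa2, Hspa4l and Hspa1l. Hspa1b fell from the second place to 519 ± 357 per kb, below Hsph1 in 5 of 5 old mice.

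The summed level of the 10 members was 24377 ± 7989 per kb in the young vessels and 12960 ± 2130 per kb in the old (SD over 5 mice each). The sum ran from 14636 (young 1) to 35774 (young 2) and from 11175 (old 3) to 16655 (old 1), so the groups overlapped. The stress-inducible pair made up 28.4%, 41.0%, 35.8%, 30.7% and 12.9% of it in young mice 1 to 5, and 11.6%, 4.44%, 2.52%, 8.17% and 8.66% in old mice 1 to 5. Every old share was below every young share, although young 5 and old 1 were close. Hspa5 moved the other way as a share, from 14.6 ± 3.48% to 26.2 ± 3.44% (SD), with no overlap, while its own level did not pass the test. Shares of one sum are tied to each other, and these were given no test.

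**Figure D3:**
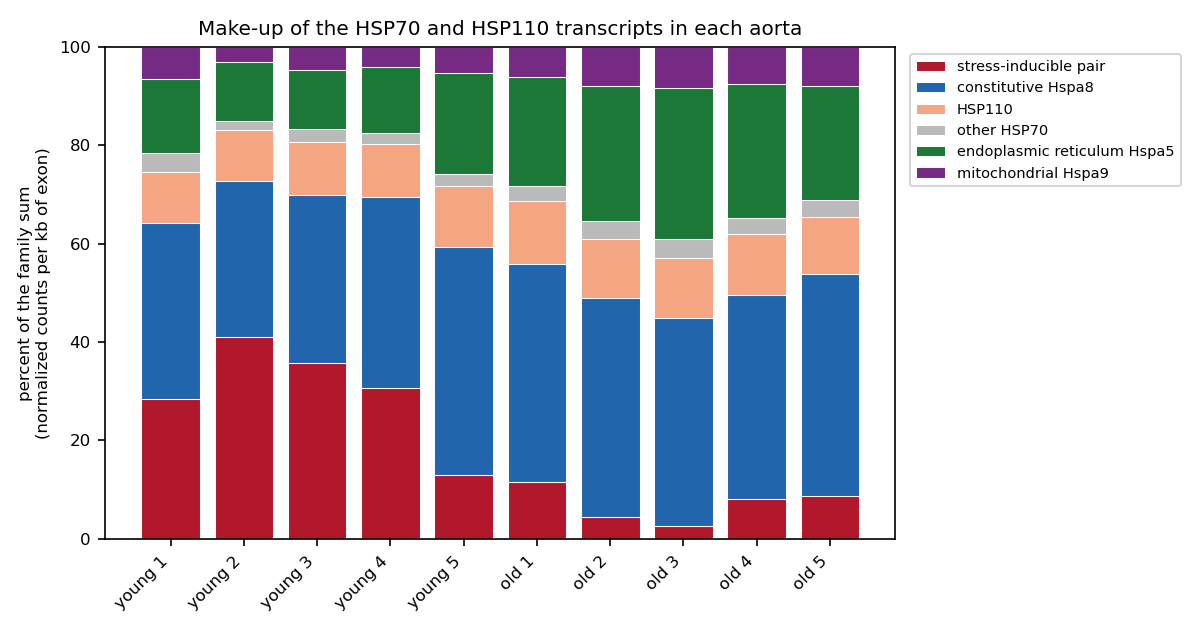
Share of each class in the summed HSP70 and HSP110 level of each aorta, in percent of normalized counts per kb of exon; each bar is 1 mouse. The stress-inducible pair (Hspa1a and Hspa1b) takes 12.9% to 41.0% of the bar in young and 2.52% to 11.6% in old mice.

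Ratios within each aorta were used to compare classes, since a factor that scales all genes of a library cancels in them. The means of 4 ratios were compared between ages by exact permutation (two-sided), for which the smallest possible p was 0.00794. The log2 ratio of Hspa1a plus Hspa1b over Hspa8 was -0.997 ± 0.85 in the young vessels and -3.39 ± 0.87 in the old (SD, n = 5 each). This difference of -2.39 ± 0.55 (SE) had an exact p of 0.00794, or 0.0159 adjusted over the 4 ratios, and the groups did not overlap. The stress-inducible pair was thus lower also relative to the constitutive member.

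The constitutive member was in turn lower relative to BiP. The log2 ratio of Hspa8 over Hspa5 was 1.27, 1.44, 1.51, 1.56 and 1.21 in young mice 1 to 5 and 1.02, 0.72, 0.49, 0.64 and 0.98 in old mice 1 to 5. Every old mouse was below every young mouse, including young 1, whose Hspa8 and Hspa5 were both low. The difference was -0.63 ± 0.12 (SE), with an exact permutation p of 0.00794 (adjusted 0.0159). For Hspa8 over Hspa9 the difference was -0.47 ± 0.18 (SE) with an exact permutation p of 0.0556 (adjusted 0.0741), and for Hsph1 over Hspa4 it was -0.68 ± 0.32 (SE) with an exact permutation p of 0.0873. Both of these overlapped between groups, and both had an exact p below 0.05 when young 1 was left out (0.0159 and 0.0476, before adjustment). In Hsph1 over Hspa4, old 1 lay above young 3 and young 5, and the exact permutation p without old 1 was 0.0317. Over 12 alternatives the exact p of these ratios reached 0.119 and 0.190.

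**Figure D4:**
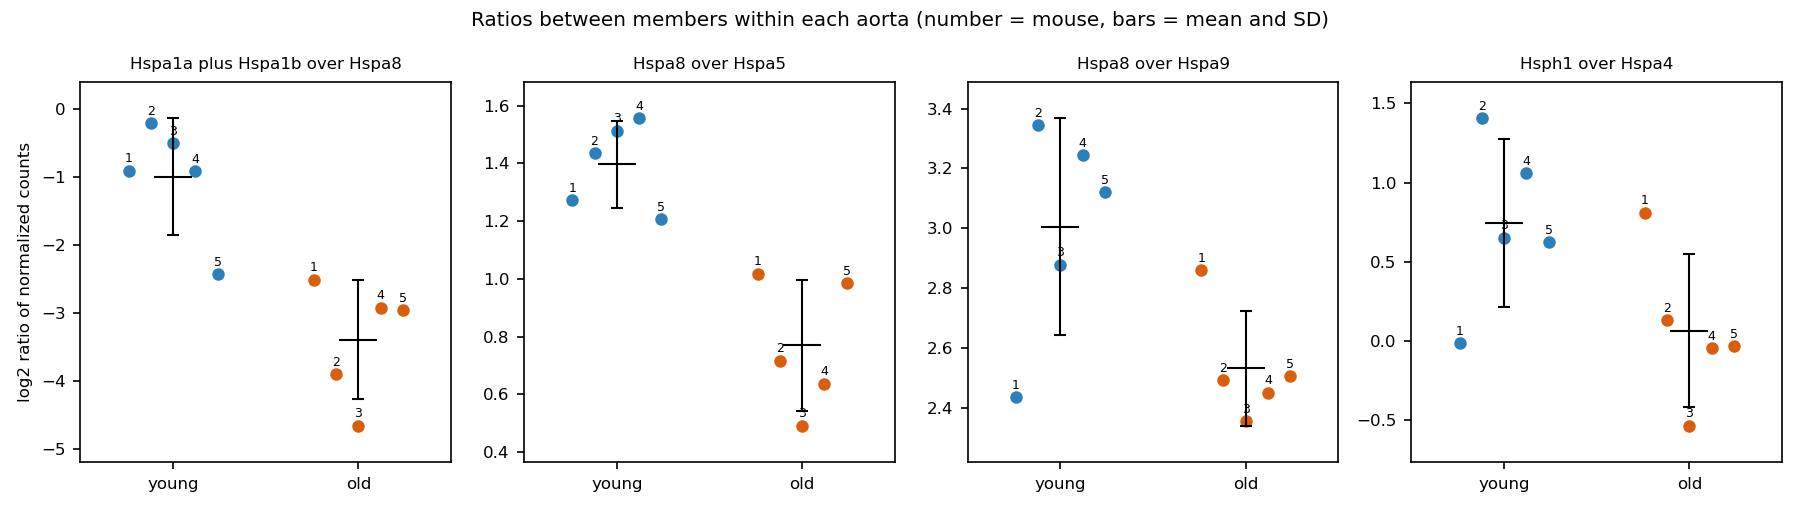
Log2 ratios of normalized counts between members in each of 5 young and 5 old aortae, with the mean and SD; numbers are mice. The 2 ratios on the left do not overlap between ages, and in the 2 on the right young 1 lies among the old mice. For Hsph1 over Hspa4, old 1 also lies above young 3 and young 5.

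The likeness of members from mouse to mouse differed widely between pairs. After the group means were removed from log2 CPM, Pearson's r over the 10 mice ran from -0.15 to 0.986 over the 45 pairs of members, with a median of 0.601. It was 0.986 between Hspa1a and Hspa1b, 0.973 between Hspa8 and Hspa9 and 0.954 between Hspa8 and Hsph1. Between the 3 members on chromosome 17 and the other 7 members it ran from -0.15, for Hspa1l and Hspa2, to 0.766, for Hspa1b and Hsph1, and it was 0.0702 between Hspa1a and Hspa5. The 4 genes outside the family most like Hspa1b, of 11054 compared, were Prdm15 (r = 0.961), Zfp326, Slc5a3 and Nmt2. Those most like Hspa8 were Itga7 (r = 0.983), Mertk, Nt5dc3 and Lrrc47, and those most like Hspa9 were Nt5dc3 (r = 0.985), Ifrd1, Tshz3 and Cdh6. For Hspa5 they were Hyou1 (r = 0.976), Psme4, Hdlbp and 4930523C07Rik, and Hyou1 is itself an HSP70-related chaperone of the endoplasmic reticulum. These values are the largest of many and describe these 10 mice.

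The genes that work with HSP70 were counted in the same fit. Of 82 genes in 7 lists, 80 were tested, 16 were lower and 1 was higher, and their median log2 fold change was -0.08. Of all genes tested, 4.99% were lower and 6.48% higher, and in 4.55% every old mouse was below every young mouse. Many calls in the lists were lost or gained when 1 mouse was left out, as given for each list. The calls over all genes moved as well. With every mouse 729 genes were lower, and with 1 mouse left out 474 (without young 4) to 1139 (without young 1). Genes called higher numbered 947 with every mouse and 658 to 1228 with 1 left out. The largest count was in the HSP90 machinery and small heat shock proteins, where 7 of 14 were lower (median -0.42). Ier5, which is in this list but belongs to neither class, was among the 7. The count was 12 without young 1, 4 without young 4 or old 3 and 4 without a low-count filter, and 5 to 7 without any other mouse. Hspb6, a small heat shock protein of smooth muscle, had 3429 ± 339 and 2568 ± 216 normalized counts (log2 fold change -0.41, edgeR adjusted p 0.00499). Hspb8, which works with Bag3 in clearing damaged filaments, fell from 4671 ± 786 to 3236 ± 269 (edgeR adjusted p 0.00731), and the HSP90 co-chaperone Ptges3 from 1445 ± 202 to 1070 ± 82.5 (edgeR adjusted p 0.0114).

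Among J-domain partners 5 of 19 were lower and none was higher (median -0.13). The count was 7 without young 1, 4 without old 4, 2 without old 2, 1 without young 2 or young 4 and 3 without any other mouse, and 2 without a low-count filter. Dnajb4 had 7725, 17037, 14377, 16714 and 11042 normalized counts in young mice 1 to 5 and 5409, 3485, 3105, 5711 and 6100 in old mice 1 to 5. Its groups did not overlap, with a log2 fold change of -1.48 ± 0.26 (SE) and an edgeR adjusted p of 0.00611. Dnajb1, the main heat-inducible HSP40 of the cytosol, fell from 3584 ± 1377 to 1313 ± 562 normalized counts without overlap (log2 fold change -1.44, edgeR adjusted p 0.0300). Dnajb5 was lower by a smaller amount (-0.42, edgeR adjusted p 0.0239).

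Of 12 nucleotide exchange factors and adaptors 2 were lower, with a median of -0.11. The count was 4 without young 1, 2 without old 1, 0 without young 4, old 2 or old 3 and 1 without any other mouse. Bag3, which links HSP70 to autophagy, fell from 3986 ± 1338 to 2141 ± 330 normalized counts without overlap (log2 fold change -0.89, edgeR adjusted p 0.0279). Bag2, which inhibits the ubiquitin ligase CHIP, fell from 561 ± 103 to 413 ± 25.7 (log2 fold change -0.43, edgeR adjusted p 0.0288). The heat shock factor list held 6 genes, 1 of which, Hsbp1, encodes a protein that binds these factors. Of the 6 genes 4 were tested, Hsbp1 among them, and none was lower. Hsf4, best known from the lens, rose from 38.0 ± 12.4 to 68.3 ± 15.2 (edgeR adjusted p 0.0317). No heat shock factor was called higher by edgeR when young 2, young 3, young 4, young 5, old 1, old 2 or old 3 was left out, and 1 was lower without young 1. Hsf1 was named here after its value was seen, because it switches on the stress-inducible pair. Its log2 fold change was -0.11 ± 0.10 (SE), with an edgeR adjusted p of 0.541. This RNA level does not measure the activity of the protein, which was not tested.

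In the compartment of Hspa5, none of 16 chaperones and unfolded protein response genes of the endoplasmic reticulum was called in either direction by edgeR (median -0.05), 1 had an unadjusted p below 0.05, and 1 was lower without young 3. P4hb, the disulfide isomerase with the most counts in that list, had 15360.0 ± 948 and 14338 ± 1145 normalized counts. Of 10 mitochondrial chaperones, import factors and proteases 2 were lower, and these encode the mitochondrial chaperonin and its lid, Hspd1 (HSP60, log2 fold change -0.56, edgeR adjusted p 0.0386) and Hspe1 (HSP10, -0.44, edgeR adjusted p 0.0324). Neither call was stable when 1 mouse was left out. The count was 2 without young 1 or old 1, 1 without young 3 and 0 without any other mouse. None of 5 other HSP70 superfamily genes was called by edgeR, and 1 had an unadjusted p below 0.05. Limma-voom with sample quality weights called 1 higher, and edgeR without young 1 called 1 lower and 1 higher. Hyou1, the one with the most counts, had a log2 fold change of -0.03 ± 0.17 (SE).

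**Figure D5:**
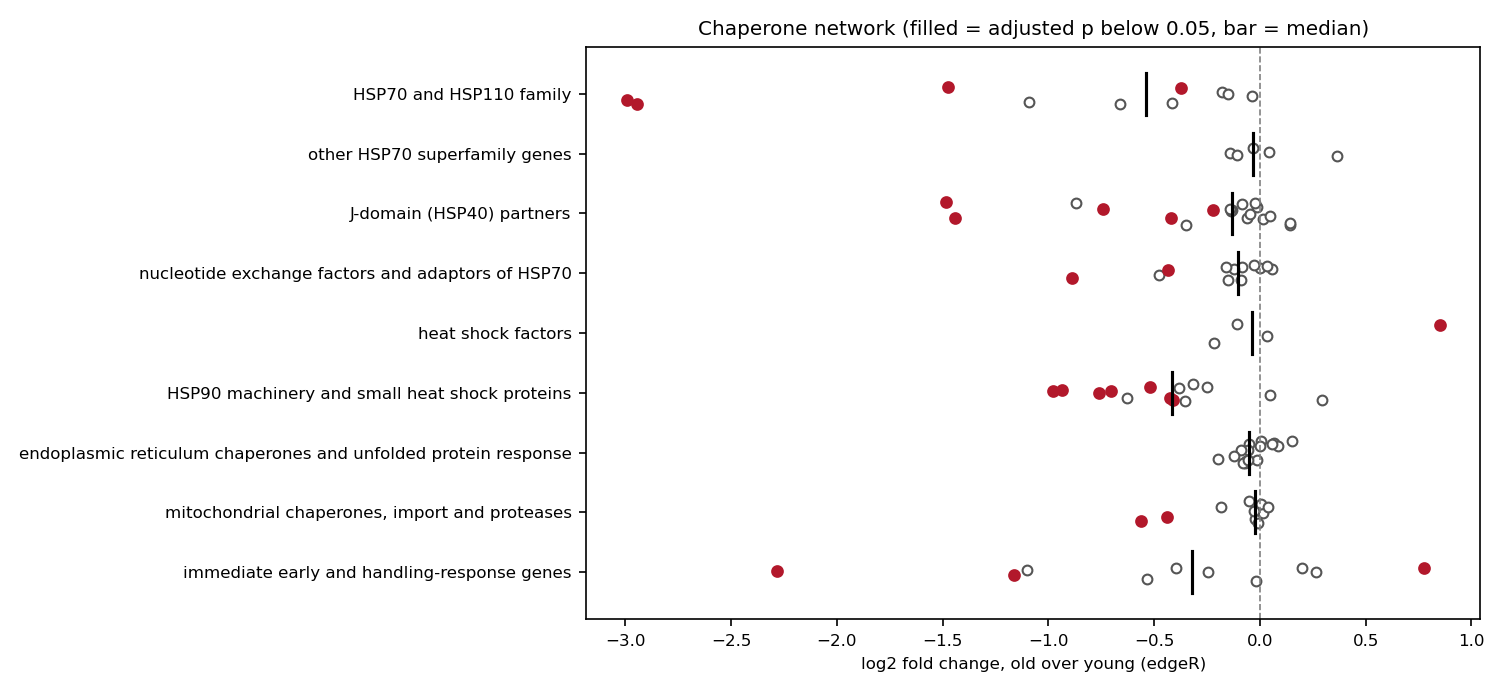
Log2 fold change, old over young, of every tested gene in the HSP70 and HSP110 family and in 8 lists of related genes; filled points had an edgeR adjusted p below 0.05 and the bar is the median. Calls lie to the left except for Hsf4 and Junb, and no gene of the endoplasmic reticulum list was called.

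Genes outside the chaperone system were counted in the same fit, which called 4.99% of all genes tested lower and 6.48% higher. Of 10 immediate early and handling-response genes, which respond within minutes to dissection or injury, 2 were lower and 1 was higher, and 1 was lower without young 3, young 4, old 1, old 3 or old 5. Atf3, a stress-induced transcription factor, fell from 2725 ± 1246 to 557 ± 194 normalized counts without overlap (log2 fold change -2.28 ± 0.39 SE, edgeR adjusted p 0.00596). Fosb was also lower (-1.16, edgeR adjusted p 0.0337), while Junb was higher (0.77, edgeR adjusted p 0.00957). The summed counts of that list ran from 19015 to 40450 in young and from 15373 to 29267 in old aortae. According to the labels both ages were killed at the same time, and the part of handling in these results was not tested.

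Markers of smooth muscle, the main cell of the aortic wall, summed to 733917 to 941453 normalized counts in every aorta, and 1 of 6, Smtn, was higher in old but not called without young 3, young 5 or old 5, while 1 was lower without young 1. Of 6 endothelial markers 1 was lower (Tek, edgeR adjusted p 0.0381), all 6 had negative log2 fold changes (median -0.66), 5 had an unadjusted p below 0.05, and their sums ran from 19345 to 33413 in young and from 9725 to 22319 in old aortae. DESeq2 and limma-voom with quality weights each called 4 endothelial markers lower, against 7.4% and 8.09% of all genes tested. With edgeR 5 were lower without old 2, 1 without young 2, young 4 or old 4 and 0 without any other mouse. Of 6 leukocyte and macrophage markers 3 were higher (median 0.79), with sums of 3941 to 5998 and 5834 to 12755. The number called higher was 1 without young 2, young 4 or young 5, 2 without old 2 and 6 with DESeq2. Of all 14609 genes tested by DESeq2, 1223 were higher. Of 6 fibroblast markers 2 were lower and 1 was higher (2 without old 1), and no adipocyte, striated muscle or Schwann cell marker was called by edgeR, with medians of -1.02, -1.02 and 0.24 and 4, 1 and 1 genes at an unadjusted p below 0.05. DESeq2 called 2 adipocyte markers lower, quality weights called 1 lower, and quality weights or leaving out young 1 called 2 Schwann cell markers higher. Among all genes, quality weights called 1417 higher and the fit without young 1 called 1228 higher. Among these lists 1 marker, of Schwann cells, was at 0 in every library. The part of cell composition in the levels of the HSP70 and HSP110 members was not tested.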

How the data were processed

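Counts per gene were made by the authors and deposited as whole numbers without normalization, 1 column per mouse. Per the labels, reads were trimmed with fastp 0.20.0, aligned to GRCm38 with STAR 2.7.0f and counted with featureCounts of Subread 1.6.4. The strand setting and the treatment of reads with several alignments are not given in the sources used here, and both can change the counts of near-identical and overlapping genes. Libraries held 19640401 to 22886153 counts. In the 20 pairs of libraries from the same age, chi-square divided by degrees of freedom was 8.06 to 58.8, far above counting noise, so each library was counted as its own replicate.

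Old and young aortae were compared with the quasi-likelihood F test of edgeR 4.0.16 (R 4.3.3; filterByExpr, TMM, robust fit, no covariates). The Benjamini-Hochberg adjustment ran over the 14614 genes tested, and genes were called below 0.05. The SE is the log2 fold change divided by the square root of F. Normalized counts are counts divided by size factors of DESeq2 1.42.0. Ratios had a pseudocount of 0.5 normalized counts and exact permutation tests over the 252 assignments of mice. Levels per kb used the merged exonic length of all transcripts of a gene in GENCODE M21, and promoters came from RefSeq (GRCm38.p6). The scripts were tested on simulated data. Alternatives were DESeq2, limma-voom 3.58.1 with and without sample quality weights, other scalings, filters and thresholds, the replicate number as a block, and each mouse left out in turn.

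The members and gene lists were chosen with earlier results of these data known. Beside the members, the text names the 3 called genes with the smallest p of each list, or its most abundant gene where none was called, and the 4 genes most like Hspa1b, Hspa8, Hspa5 and Hspa9 with at least 100 normalized counts on average. Hsf1 was named outside this rule, as were Hsbp1 and Ier5, to describe what their lists hold.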

Additional observations from a re-analysis of the deposited data

Results flagged for a closer look

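Old 1 stood apart from the other old mice in 2 members. Its Hsph1 level of 8372 normalized counts lay above the other 4 old mice, at 3184 to 4644, with a gap that was larger relative to the range than Dixon's critical value of 0.71 for 5 samples. Its Hspa4l level of 1471 lay in the same way above the others, at 809 to 994. Among 28 groups examined, chance flags about 1 in 20.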

How the results depend on the processing

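All 4 called members kept their direction and their call under each change of test, scaling or filter and without any single mouse, but at a threshold of 0.01 only Hspa1l was called (1 member). Limma-voom with sample quality weights called 7 members lower (8.09% of all genes), and between 4 and 7 were lower with 1 mouse left out, the highest count being without young 1. Genes called lower numbered 729 in all, 1182 with quality weights, 263 at 0.01, and 474 (without young 4) to 1139 (without young 1) with 1 mouse left out, and those called higher were 947, and 395 at 0.01. In the 8 lists of related genes, handling-response genes included, 18 of 90 tested genes were lower and 2 higher, and the 18 lower genes became 9 without a low-count filter, 4 at 0.01 and 6 (without young 4) to 29 (without young 1) with 1 mouse left out, and the 2 higher genes became 1 at 0.01 and 1 to 3. They were 10, 11, 9, 8 and 10 lower without young 2, young 5, old 2, old 3 and old 5. Quality weights gave adjusted p-values of 0.0140 for Hspa8 (log2 fold change -0.75), 0.0315 for Hsph1 (-1.20) and 0.0339 for Hspa9 (-0.18). DESeq2 called Hspa8 (-0.67) and Hsph1 (-1.09). Without young 1 and old 2 together, Hspa8 was -0.79 (adjusted p 0.0121) and Hspa9 -0.19 (adjusted p 0.0451). With 1 mouse left out, log2 fold changes ran from -0.81 to -0.56 for Hspa8, -1.36 to -0.86 for Hsph1, -0.19 to -0.13 for Hspa9 and -0.16 to 0.05 for Hspa5, and the ratio differences from -0.62 to -0.39 for Hspa8 over Hspa9 and -0.87 to -0.51 for Hsph1 over Hspa4. Hspa5, which was not called anywhere, changed sign with limma-voom (0.00646) and without young 2 (0.048), young 5 (0.051) or old 5 (0.018). The cause of these changes was not tested.

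The replicate numbers did not pair the mice: correlations of same-numbered mice ran from -0.29 to 0.13, and 2 of 5 young mice were most like the old mouse of the same number. With the replicate number as a block, 467 genes, 2 members and 5 genes of the related lists were lower. Under this block Hspa1a was at -2.94 (adjusted p 0.101), Hspa1b at -3.06 (adjusted p 0.0960) and Hspa5 at 0.00427, and the ratio differences of -2.39 and -0.63 had an exact permutation p of 0.0625, the smallest that 5 pairs allow.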
